A study of Homo sapiens with 2 samples.

Results

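The genes described here make, lengthen, desaturate and burn fatty acids. They were chosen by name as 37 rows of a table of 20802 amplicons, 1 amplicon per gene, and all 37 were found. Expression was measured in LNCaP, a human prostate cancer line grown from a lymph node metastasis, and in MDA Pca 2b, a line derived from a prostate tumour that had spread to bone. The labels call both lines WT, name no agent or time, and give 1 library of total RNA for each line, made with an AmpliSeq Transcriptome kit that amplifies a short stretch of each transcript with a primer pool. Library totals were 10778061 counts (LNCaP) and 8558660 counts (MDA Pca 2b), and wherever a pair of counts or levels follows, LNCaP comes first. With 1 library per line there was no replicate spread and no test was possible, so every difference is one between a pair of libraries and may not hold for other cultures.

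Fatty acid synthesis starts from citrate, which ACLY cleaves to cytosolic acetyl-CoA. Acetyl-CoA carboxylase turns it into malonyl-CoA, and FASN joins these units into palmitate, which elongases and desaturases then modify. Oxidation runs the other way: acyl-CoA synthetases activate the acid, the carnitine palmitoyltransferases carry it into mitochondria, and dehydrogenases, hydratases and thiolases shorten it step by step. Malonyl-CoA inhibits CPT1, so that synthesis and entry into oxidation oppose each other. Prostate cancers are known for active lipid synthesis, in which the SREBP factors take part.

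Both libraries carried the markers of prostate luminal epithelium. All 8 of the markers used (KLK3, KLK2, TMPRSS2, FOLH1, HOXB13, KRT8, KRT18 and EPCAM) were detected in both, with summed levels of 3404 and 4108 CPM. Markers of cells rich in these enzymes were low: of 4 adipocyte markers ADIPOQ and LEP were at 0 in both libraries and the sum was 7.38 and 18.3 CPM, and of 3 hepatocyte markers ALB had 0 and 3 counts and the sum was 7.75 and 1.53 CPM. Sums over fibroblast (5 genes), leukocyte (4) and endothelial (4) markers lay between 3.51 and 20.8 CPM in both libraries, with COL1A2, PTPRC, CD3E, CDH5 and KDR at 0 in both. Single genes of these lists did differ, among them PLIN1 with 4 and 58 counts, TTR with 84 and 5 and CD14 with 68 and 149, and their part in the results was not tested. CPM are counts scaled by the library total and TMM factors, with 1 count equal to 0.0923 and 0.117 CPM. The share of small nucleolar RNAs differed, at 1.48% in LNCaP (exact 95% interval 1.47 to 1.49) against 6.18% in MDA Pca 2b (6.16 to 6.19). Scaling to totals without them left the counts of members apart, given next, at 9 and 4.

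Most of the fatty acid genes had ratios toward LNCaP, by moderate folds, while a few lowly read ones were far higher in MDA Pca 2b. A gene was taken as measured when either library held 10 or more of its counts, which was so for 34 of the 37. It was called apart when the exact 95% interval of the ratio, which covers counting error only, lay wholly past 2-fold. By that rule 9 of the 34 were higher in LNCaP (26.5%), where 13.2% of all 14418 measured genes were. Another 4 were higher in MDA Pca 2b (11.8%), close to the 10.9% of all measured genes, and 24.1% of all measured genes were apart in either direction. The other 21 members were not past 2-fold, and of all 34 ratios 24 were toward LNCaP and 10 toward MDA Pca 2b. The median log2 ratio of MDA Pca 2b over LNCaP was −0.85 over the measured members, with quartiles of −1.30 and 0.14, against −0.0018 over all measured genes, with quartiles of −0.82 and 0.79.

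The members higher in MDA Pca 2b were lowly read. Of these 4, ELOVL2, ELOVL4 and ACADL passed the minimum of 10 counts through that library alone, so for them a difference was built into the filter. With at least 10 counts in both libraries, 31 members remained, of which 9 were higher in LNCaP and 1, ACSS1, in the other line. The shares over all 12885 such genes were 11.2% and 8.89%, or 20.1% in either direction. Among the 24 members with a mean of at least 10 CPM the counts were 8 and 0, against 13.2% and 10.5% (23.7% in either direction) of 9727 genes. All members together took 0.469% of the LNCaP library (0.465 to 0.473) but 0.254% of the other (0.250 to 0.257). This summed level was 1.83-fold higher in LNCaP (1.80 to 1.86), and 1.70-fold (1.67 to 1.73) without ELOVL5, the member with most counts. In a bulk library, fewer cells with a transcript and less of it per cell cannot be told apart.

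The folds of most members called higher in LNCaP are small enough to depend on what is taken as error. With an assumed spread of 20% between libraries added to the counting error, 2 of the 34 members were still higher in LNCaP (FADS2 and DECR1), where 7.04% of all measured genes were. With 40% only FADS2 was, against 4.02% of all measured genes, so the larger share of members higher in LNCaP was gone with either spread. In the other direction 4 members passed with 20% (6.38% of all measured genes) and 3 with 40% (4.09%), and those 3 are the members that entered through the MDA Pca 2b library alone.

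**Figure D1:**
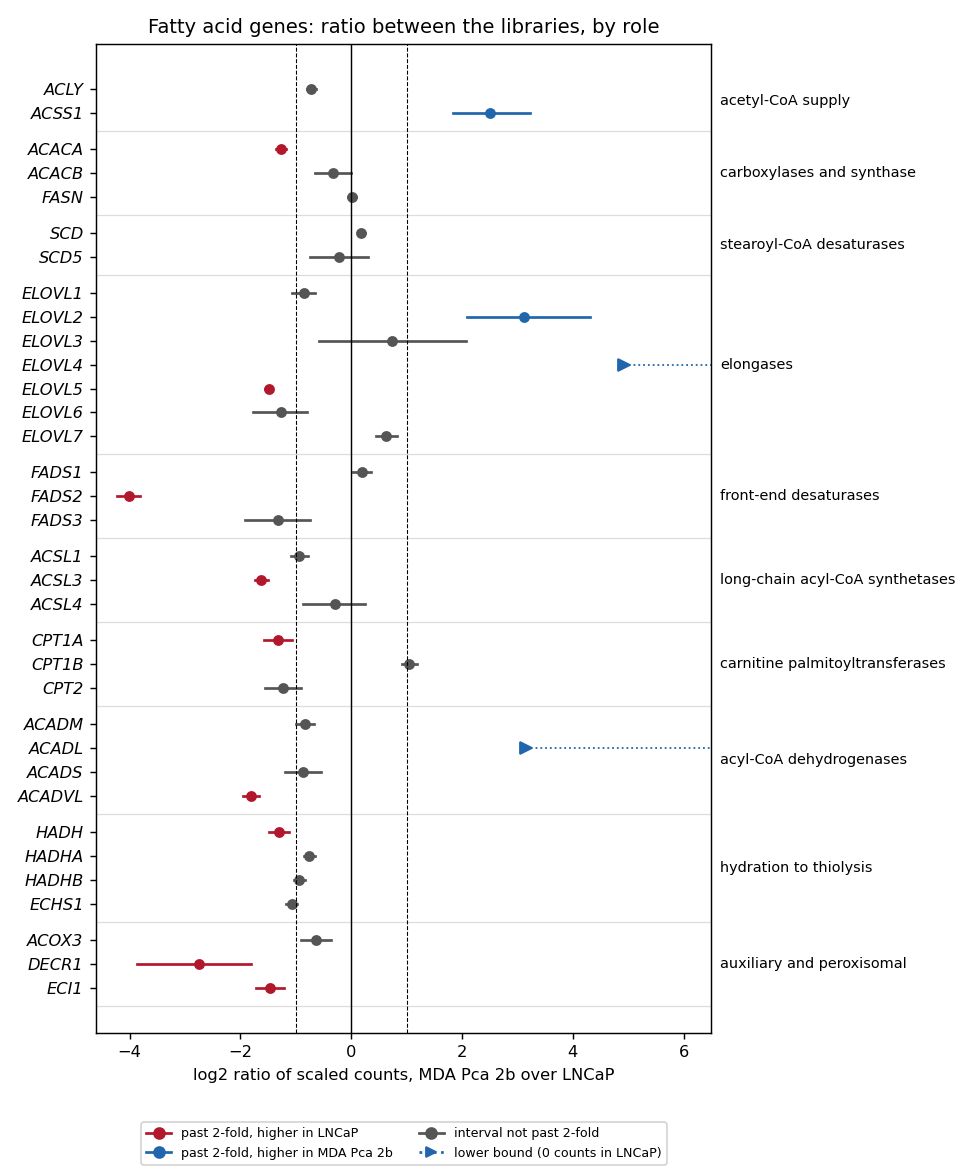
Log2 ratio of scaled counts, MDA Pca 2b over LNCaP, for the 34 measured members grouped by role. Points are ratios, lines exact 95% intervals for counting error, triangles lower bounds against 3 counts where LNCaP had 0, and dashed lines mark 2-fold. The 9 red members lie left of the 2-fold line, FADS2 farthest, and the 4 blue members right of it.

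**Figure D2:**
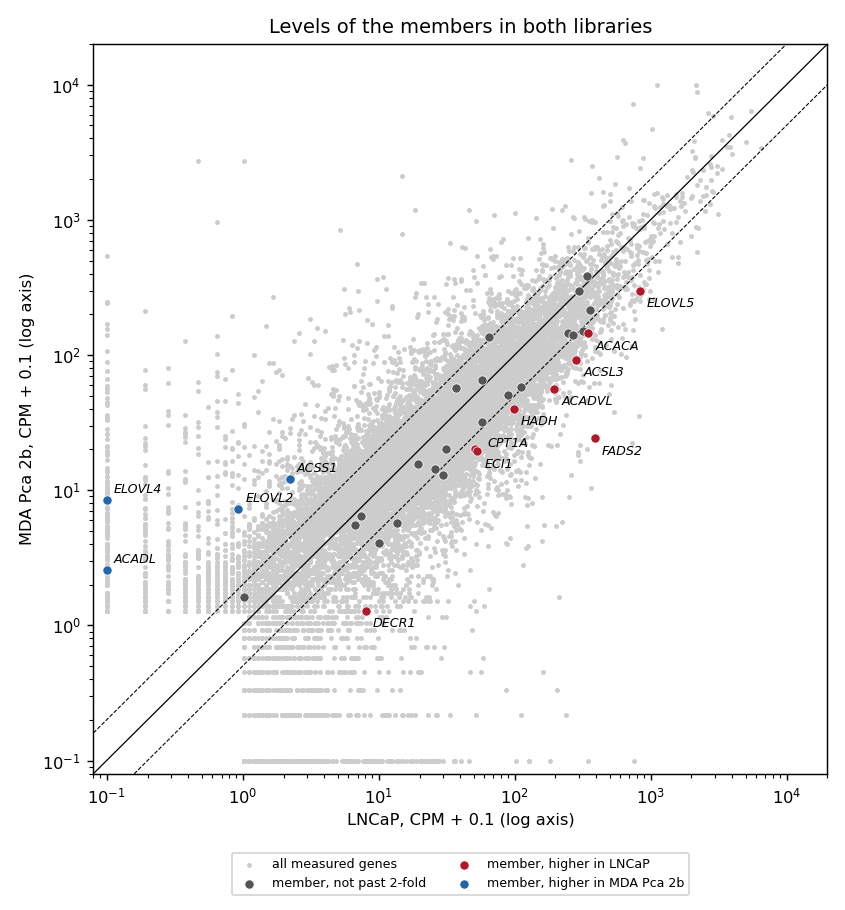
Level of each measured gene in LNCaP (horizontal) and MDA Pca 2b (vertical) as CPM + 0.1 on log axes, with all 14418 measured genes in grey and the 34 measured members in colour. The solid line marks equal levels and the dashed lines 2-fold. The members higher in MDA Pca 2b sit at low levels, from ACADL at 2.47 CPM to ACSS1 at 12.0 CPM in that line, while those higher in LNCaP reach from DECR1 at 7.93 CPM to ELOVL5 at 835 CPM.

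At the head of the pathway, the genes that supply acetyl-CoA differed in direction. ACLY, the citrate lyase that makes cytosolic acetyl-CoA, had 3867 and 1841 counts, or 357 and 216 CPM. It was 1.65-fold higher in LNCaP (1.56 to 1.74), under 2-fold. ACSS1, which makes acetyl-CoA from acetate inside mitochondria, had 23 and 102 counts and was higher in MDA Pca 2b by 5.65-fold (3.57 to 9.31). Its cytosolic counterpart ACSS2 had 1 and 0 counts and was not measured.

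The carboxylase and the synthase of the same chain did not move in step. ACACA, the cytosolic acetyl-CoA carboxylase that makes malonyl-CoA for synthesis, had 3779 and 1232 counts and was 2.41-fold higher in LNCaP (2.26 to 2.57). FASN, which builds palmitate from malonyl-CoA, had 3215 and 2544 counts, which is 297 and 299 CPM. Its ratio of MDA Pca 2b over LNCaP was 1.01 (0.956 to 1.06), and its sign changed with library totals, DESeq2 size factors and the removal of the GC trend, which took the log2 ratio from 0.011 to −0.21. The count of ACACA relative to FASN was 1.18 in LNCaP and 0.484 in MDA Pca 2b. Such a ratio between genes depends on how well each amplicon is amplified, and only its change between the libraries can be read. ACACB, the carboxylase at the outer mitochondrial membrane, was at 19.4 and 15.5 CPM, a ratio of 1.25 toward LNCaP with an interval that reached from no difference to 1.57.

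The stearoyl-CoA desaturases, which put a double bond into saturated fatty acids, were at like levels in both libraries. SCD had 3682 and 3286 counts, a ratio of 1.14 toward MDA Pca 2b (1.08 to 1.19). SCD5 had 80 and 54 counts, a ratio of 1.16 toward LNCaP (0.814 to 1.67). SCD and FASN thus kept nearly the same count ratio to each other, 1.15 in LNCaP and 1.29 in MDA Pca 2b. The quotient of this ratio between the lines was 0.887 (0.826 to 0.952).

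The front-end desaturases, which add double bonds on the way to long polyunsaturated fatty acids, held the widest difference toward LNCaP. FADS2, which makes the opening desaturation of linoleic and alpha-linolenic acid, had 4221 and 205 counts, or 389 and 24.1 CPM. It was 16.2-fold higher in LNCaP (14.1 to 18.7). FADS1, which acts later in the same route, had 620 and 558 counts, a ratio of 1.15 toward MDA Pca 2b (1.02 to 1.29). FADS3, whose product acts on sphingoid bases, had 108 and 34 counts, a ratio of 2.49 toward LNCaP (1.68 to 3.78) whose interval was not past 2-fold.

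FADS1, FADS2 and FADS3 lie next to each other on chromosome 11. FADS1 and FADS2 are on opposite strands with annotated starts 800 bases apart, and their 5′ ends overlap, so that antisense reads of one could be counted for the other if strand was not used. The promoter windows of these neighbours, whose ratios lay so far apart, are given below from RefSeq on GRCh38.p14, 5′ to 3′ in the direction of transcription. Each has 250 bases before the start in lower case and the 50 bases from the start on in capitals.
FADS1 (chr11:61816954-61817253, minus strand): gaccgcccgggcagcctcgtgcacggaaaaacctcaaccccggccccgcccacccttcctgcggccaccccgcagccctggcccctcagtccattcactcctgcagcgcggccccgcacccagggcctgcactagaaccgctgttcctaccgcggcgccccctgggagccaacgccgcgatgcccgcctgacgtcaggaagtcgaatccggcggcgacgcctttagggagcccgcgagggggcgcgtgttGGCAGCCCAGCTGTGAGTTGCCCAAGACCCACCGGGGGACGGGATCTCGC
FADS2 (chr11:61815953-61816252, plus strand): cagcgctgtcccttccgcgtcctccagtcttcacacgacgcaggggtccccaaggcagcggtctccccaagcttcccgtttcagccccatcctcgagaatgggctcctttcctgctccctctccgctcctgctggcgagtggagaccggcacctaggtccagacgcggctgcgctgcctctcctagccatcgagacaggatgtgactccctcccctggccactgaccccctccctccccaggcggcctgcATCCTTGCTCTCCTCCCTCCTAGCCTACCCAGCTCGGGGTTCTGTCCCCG
The FADS1 window has 72.0% G and C with 32 CpG dinucleotides and the FADS2 window 66.7% with 18, where the median of 27305 promoter windows is 58.3% with 14. The count of FADS2 relative to FADS1 was 6.81 in LNCaP and 0.367 in MDA Pca 2b. This ratio does not depend on scaling, and its quotient between the lines was 18.5 (15.4 to 22.3).

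The elongases, which add carbon units to long-chain acyl-CoA in the endoplasmic reticulum, went both ways. ELOVL5, which lengthens polyunsaturated acids in the same route as FADS2, had 9045 and 2534 counts. At 835 and 298 CPM it was 2.80-fold higher in LNCaP (2.68 to 2.93). ELOVL2 and ELOVL4, which act on the longer polyunsaturated and very-long-chain acids, were the elongases higher in MDA Pca 2b. ELOVL2 had 9 and 61 counts and was 8.63-fold higher there (4.26 to 19.8). ELOVL4 had 0 and 71 counts and was at least 23.9-fold higher there (30.1-fold against 3 counts in LNCaP). Both were at low levels, 7.17 and 8.34 CPM in MDA Pca 2b.

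The other elongases were not past 2-fold. ELOVL1, which makes very-long-chain saturated acids, had 626 and 271 counts, 1.81-fold higher in LNCaP (1.57 to 2.10). ELOVL6, which lengthens palmitate to stearate, had 148 and 48 counts, a ratio of 2.42 toward LNCaP (1.74 to 3.43). ELOVL7 had 400 and 487 counts, a ratio of 1.55 toward MDA Pca 2b (1.36 to 1.77). ELOVL3 had 10 and 13 counts, too few to place (1.66 toward MDA Pca 2b, 0.671 to 4.22).

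ELOVL5 and ELOVL4, called apart in opposite directions, both lie on chromosome 6. Both hold the NF-Y box CCAAT and the E-box CACGTG in their promoter windows. The windows are shown from RefSeq on GRCh38.p14, 5′ to 3′, with these motifs on either strand in capitals (CCAAT reads ATTGG on the other strand).
ELOVL5 (chr6:53348901-53349200, minus strand): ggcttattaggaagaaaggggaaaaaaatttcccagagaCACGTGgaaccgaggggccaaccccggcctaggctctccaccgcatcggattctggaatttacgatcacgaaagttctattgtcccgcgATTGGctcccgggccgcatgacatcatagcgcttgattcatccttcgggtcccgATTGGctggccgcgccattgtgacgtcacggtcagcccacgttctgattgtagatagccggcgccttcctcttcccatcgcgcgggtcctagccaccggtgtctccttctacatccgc
ELOVL4 (chr6:79947504-79947803, minus strand): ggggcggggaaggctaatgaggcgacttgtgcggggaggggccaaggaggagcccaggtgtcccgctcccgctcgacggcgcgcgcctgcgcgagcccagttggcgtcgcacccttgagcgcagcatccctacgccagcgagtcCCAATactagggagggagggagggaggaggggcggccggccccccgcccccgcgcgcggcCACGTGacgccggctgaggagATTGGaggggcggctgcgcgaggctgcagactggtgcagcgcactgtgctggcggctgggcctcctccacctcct
A window with 250 bases before the start and 50 from it was found for 34 members; FASN, CPT1B and DECR1 had none. CCAAT, searched on both strands, was in 11 of these 34 windows (32.4%) and in 35.7% of all 27305 windows. CACGTG was in 2 of 34 (5.88%), the pair shown, and in 7.43% of all. The sterol regulatory element TCACNCCAC and the PPAR element, AGGTCA repeated after a gap of 1 base, were in 0 of 34, and in 1.15% and 0.022% of all. No match says only that these letters are not in these windows.

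Long-chain acyl-CoA synthetases, which activate fatty acids for either fate, had 1 member past 2-fold. ACSL3, known from lipid droplets and the endoplasmic reticulum, had 3079 and 785 counts and was 3.08-fold higher in LNCaP (2.85 to 3.34). ACSL1, a main synthetase of liver and fat, had 1208 and 496 counts, 1.91-fold higher in LNCaP (1.72 to 2.13). ACSL4, which prefers arachidonic acid, had 72 and 46 counts, a ratio of 1.23 toward LNCaP (0.837 to 1.82). ACSL5 with 5 and 0 counts and ACSL6 with 9 and 3 counts were not measured.

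At the mitochondrial entry, the paralogs of CPT1 had opposite ratios. CPT1A, the liver-type enzyme of the outer membrane, had 549 and 172 counts and was 2.51-fold higher in LNCaP (2.11 to 2.99). With upper quartile scaling it was not past 2-fold (2.36, 1.98 to 2.81). CPT1B, the muscle-type enzyme, had 708 and 1151 counts, a ratio of 2.07 toward MDA Pca 2b (1.88 to 2.28), which passed 2-fold with upper quartile scaling and no other scaling run (2.20, 2.00 to 2.42). Relative to CPT1A, the count of CPT1B was 1.29 in LNCaP and 6.69 in MDA Pca 2b, which gives a quotient of 0.193 (0.158 to 0.235) that is free of scaling. A transcript that joins CHKB and CPT1B is annotated, and the counts cannot separate it from CPT1B. CPT2, the inner-membrane partner of both, had 324 and 109 counts, a ratio of 2.33 toward LNCaP (1.87 to 2.93), not past 2-fold.

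Acyl-CoA dehydrogenases open each turn of oxidation and are split by chain length. ACADVL, for very long chains, had 2125 and 479 counts and was 3.48-fold higher in LNCaP (3.15 to 3.85). ACADM, for medium chains, had 972 and 428 counts (1.78-fold, 1.59 to 2.00), and ACADS, for short chains, 281 and 121 (1.82-fold, 1.47 to 2.28). Both ratios were toward LNCaP, and neither interval was past 2-fold. ACADL, for long chains, went the other way, with 0 and 21 counts, or 2.47 CPM in MDA Pca 2b. It was higher there by at least 6.63-fold (8.91-fold against 3 counts in LNCaP).

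The enzymes of the later steps all had ratios toward LNCaP within a narrow range. HADH, the hydroxyacyl-CoA dehydrogenase for shorter chains, had 1071 and 340 counts and was 2.47-fold higher in LNCaP (2.19 to 2.80). ECHS1, the short-chain enoyl-CoA hydratase, had 3445 and 1284 counts and lay just short of the threshold at 2.11-fold (1.98 to 2.25). It passed with DESeq2 size factors (2.03 to 2.31) and with the trend over GC content removed (2.25 to 2.56). HADHA and HADHB, the subunits of the mitochondrial trifunctional protein that handles long chains, had 2684 and 1246 counts and 2938 and 1206 counts. Their ratios toward LNCaP were 1.69 (1.58 to 1.81) and 1.91 (1.79 to 2.05).

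HADHA and HADHB start 307 bases apart on chromosome 2 and are read in opposite directions, away from each other, which makes them a natural pair beside FADS1 and FADS2. Their promoter windows from RefSeq on GRCh38.p14 overlap by 194 bases; they are printed in the same way, 5′ to 3′ with the 50 bases from each start on in capitals.
HADHA (chr2:26244583-26244882, minus strand): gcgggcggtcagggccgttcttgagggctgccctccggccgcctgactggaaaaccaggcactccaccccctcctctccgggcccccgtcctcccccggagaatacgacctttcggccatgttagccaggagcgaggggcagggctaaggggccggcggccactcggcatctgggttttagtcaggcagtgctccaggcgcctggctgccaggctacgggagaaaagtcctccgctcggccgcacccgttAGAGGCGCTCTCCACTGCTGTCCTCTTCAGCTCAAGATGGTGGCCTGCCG
HADHB (chr2:26244689-26244988, plus strand): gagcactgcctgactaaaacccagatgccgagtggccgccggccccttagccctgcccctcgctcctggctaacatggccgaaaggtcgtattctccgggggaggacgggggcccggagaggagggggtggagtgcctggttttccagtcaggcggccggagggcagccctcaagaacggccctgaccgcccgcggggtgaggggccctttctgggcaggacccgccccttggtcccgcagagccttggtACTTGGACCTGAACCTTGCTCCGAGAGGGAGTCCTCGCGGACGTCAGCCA
The count of HADHA relative to HADHB was 0.914 in LNCaP and 1.03 in MDA Pca 2b. The quotient of 0.884 (0.803 to 0.973) is close to 1, unlike that of the FADS pair.

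Among the auxiliary enzymes, DECR1 and ECI1 help to oxidise unsaturated fatty acids, which the main spiral cannot process alone. DECR1, the mitochondrial dienoyl-CoA reductase, had 86 and 10 counts and was 6.75-fold higher in LNCaP (3.50 to 14.6). ECI1, the enoyl-CoA isomerase that shifts double bonds, had 577 and 164 counts and was 2.76-fold higher in LNCaP (2.32 to 3.31). ACOX3, a peroxisomal oxidase of branched-chain acyl-CoA, had 336 and 170 counts, a ratio of 1.55 toward LNCaP (1.29 to 1.88).

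Set side by side, the branches differed in how closely their members followed each other. Of 17 measured members of synthesis, desaturation and elongation, 3 were higher in each line (17.6% each way, where 13.2% and 10.9% of all measured genes were), with 9 ratios toward LNCaP and 8 toward MDA Pca 2b and a median log2 ratio of −0.21. Of the 3 higher in MDA Pca 2b, ELOVL2 and ELOVL4 entered through that library alone. Of 11 members of oxidation, 4 were higher in LNCaP and 1 lower. The 1 lower, ACADL, entered through the MDA Pca 2b library alone. Of the 11 ratios 10 were toward LNCaP, where those of 50.1% of all measured genes were (49.9% toward MDA Pca 2b). The median log2 ratio of the oxidation members was −0.94. Of 6 members of activation and mitochondrial entry, 2 were higher in LNCaP and 0 lower, with a median of −1.08, and so few genes can say little against shares of 13.2% and 10.9% over all measured genes. By summed counts each branch was higher in LNCaP. The folds were 1.75 (1.72 to 1.79) for synthesis, desaturation and elongation and 1.69 (1.62 to 1.77) for activation and mitochondrial entry. For oxidation the fold was 2.08 (2.02 to 2.15). The difference between branches was not tested. The 9 members higher in LNCaP lie on 7 chromosomes and the 4 higher in MDA Pca 2b on 3.

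**Figure D3:**
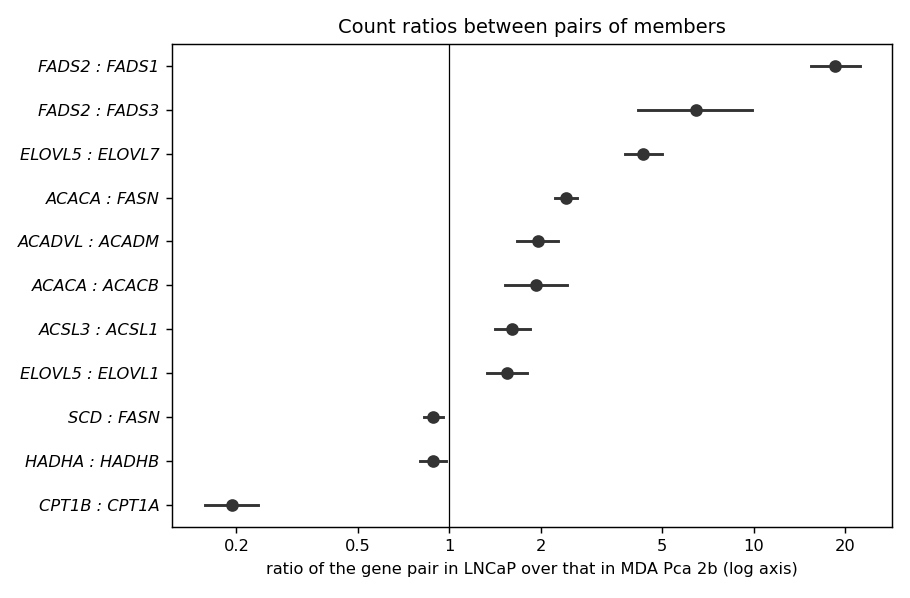
For 11 pairs of members, the count ratio of the first gene to the second in LNCaP divided by that in MDA Pca 2b, on a log axis, with exact 95% intervals for counting error; 1 means the same balance in both lines. FADS2 to FADS1 stands at 18.5 and CPT1B to CPT1A at 0.193, while HADHA to HADHB (0.884) and SCD to FASN (0.887) lie near 1. These quotients do not depend on library scaling, and the pairs were chosen after the values were seen.

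Other genes of the pathways were taken from 7 lists, and the counts of each list are to be read against the 13.2% of all measured genes that were higher in LNCaP and the 10.9% that were lower. Of 114 listed genes 90 were measured. Higher in LNCaP were 23 (25.6%) and higher in MDA Pca 2b 4 (4.44%), and 67 of the 90 ratios were toward LNCaP, with a median log2 value of −0.61. Of the 23, ME1, ACOT2, MLXIP, MLXIPL and PPARG passed the minimum of counts through the LNCaP library alone, so for them a difference was built into the filter. All listed genes share the libraries and the scaling with the members and are no separate test of them.

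Genes that feed synthesis had 4 of 9 measured members higher in LNCaP and 0 lower. ME1, the cytosolic malic enzyme that makes NADPH for synthesis, had 3728 and 0 counts, at least 793-fold higher in LNCaP (976-fold against 3 counts). The remaining genes apart belong to the separate mitochondrial synthesis of fatty acids: MCAT was 2.63-fold (2.03 to 3.44), OXSM 2.70-fold (2.21 to 3.32) and HSD17B8 3.15-fold (at least 2.50 by counting error) higher in LNCaP. Of 4 measured partners in the elongation cycle 2 were higher in LNCaP: PTPLAD1 (now HACD3, a dehydratase) by 3.42-fold (3.06 to 3.82) and TECR, the reductase that closes the cycle, by 2.45-fold (2.27 to 2.65). HSD17B12, the ketoreductase of the cycle, had a ratio of 1.33 toward MDA Pca 2b (1.22 to 1.44).

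Mitochondrial oxidation beyond the members had 6 of 16 genes higher in LNCaP and 0 lower, with 15 of 16 ratios toward LNCaP and a median log2 ratio of −1.16. MUT, the methylmalonyl-CoA mutase that ends the breakdown of odd-chain acids, had 943 and 76 counts and was 9.74-fold higher in LNCaP (7.71 to 12.5). The thiolase ACAT1 was 4.36-fold (3.98 to 4.79), the isomerase ECI2 3.53-fold (3.14 to 3.98) and PCCB, a subunit of propionyl-CoA carboxylase, 3.15-fold (2.62 to 3.80) higher in LNCaP. This list is wider than the oxidation of straight-chain fatty acids. It also holds genes for propionyl-CoA, methylmalonyl-CoA and branched-chain acyl-CoA, such as PCCA, PCCB, MCEE, MUT and ACADSB.

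In peroxisomes, 3 of 16 measured genes were higher in LNCaP (18.8%) and 1 lower (6.25%), near the shares over all measured genes, at a median log2 ratio of −0.92. PHYH, which opens the breakdown of phytanic acid, was 6.99-fold (5.39 to 9.20), the enoyl-CoA reductase PECR 3.09-fold (2.36 to 4.11) and DECR2, the peroxisomal counterpart of DECR1, 2.55-fold (2.23 to 2.92) higher in LNCaP. EHHADH, the peroxisomal bifunctional enzyme, had 91 and 398 counts and was higher in MDA Pca 2b by 5.57-fold (4.43 to 7.07).

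The carnitine shuttle around CPT1 and CPT2 had 0 of 5 measured genes apart in either direction, with 3 ratios toward LNCaP and 2 toward MDA Pca 2b. Its translocase SLC25A20 had 119 and 161 counts, a ratio of 1.72 toward MDA Pca 2b (1.35 to 2.20). Of 15 measured genes for uptake, activation and thioesterases, 2 were higher in LNCaP (13.3%, as over all measured genes) and 1 lower (6.67%). ACSM3, a medium-chain synthetase, was 5.95-fold higher in LNCaP (4.90 to 7.30). ACOT2, a mitochondrial thioesterase, had 67 and 0 counts, at least 13.9-fold higher in LNCaP (17.5-fold against 3 counts). It has a near-identical copy in ACOT1, which was at 0 in both, so the value of ACOT2 is uncertain. The fatty acid binding protein FABP5 was higher in MDA Pca 2b by 2.77-fold (2.45 to 3.14).

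Of 25 measured regulators, 6 were higher in LNCaP (24%, against 13.2% of all measured genes) and 2 lower (8%, against 10.9%), at a median log2 ratio of −0.47. Of these 6, MLXIP, MLXIPL and PPARG passed the minimum of counts through the LNCaP library alone. For them a difference was built into the filter, so the larger share cannot be read as an excess of regulators. SREBF1 and SREBF2, which encode the SREBP factors of lipid synthesis, had ratios of 1.45 (1.32 to 1.59) and 1.38 (1.26 to 1.51) toward LNCaP, under 2-fold. MLXIPL, which encodes the carbohydrate-responsive factor ChREBP, had 108 and 4 counts and was 21.2-fold higher in LNCaP (8.05 to 79.2). Its relative MLXIP had 105 and 0 counts, at least 22.0-fold higher in LNCaP (27.5-fold against 3 counts). Among the PPAR receptors for fatty acids, PPARA was at 20.6 and 21.5 CPM (ratio 1.05 toward MDA Pca 2b, 0.855 to 1.28) and PPARD had a ratio of 1.44 toward LNCaP (1.21 to 1.72). PPARG, the receptor of fat cell formation, had 123 and 0 counts, at least 25.8-fold higher in LNCaP (32.2-fold against 3 counts). PRKAG2, a regulatory subunit of the energy sensor AMPK, had 23 and 223 counts and was higher in MDA Pca 2b by 12.3-fold (8.02 to 19.9).

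**Figure D4:**
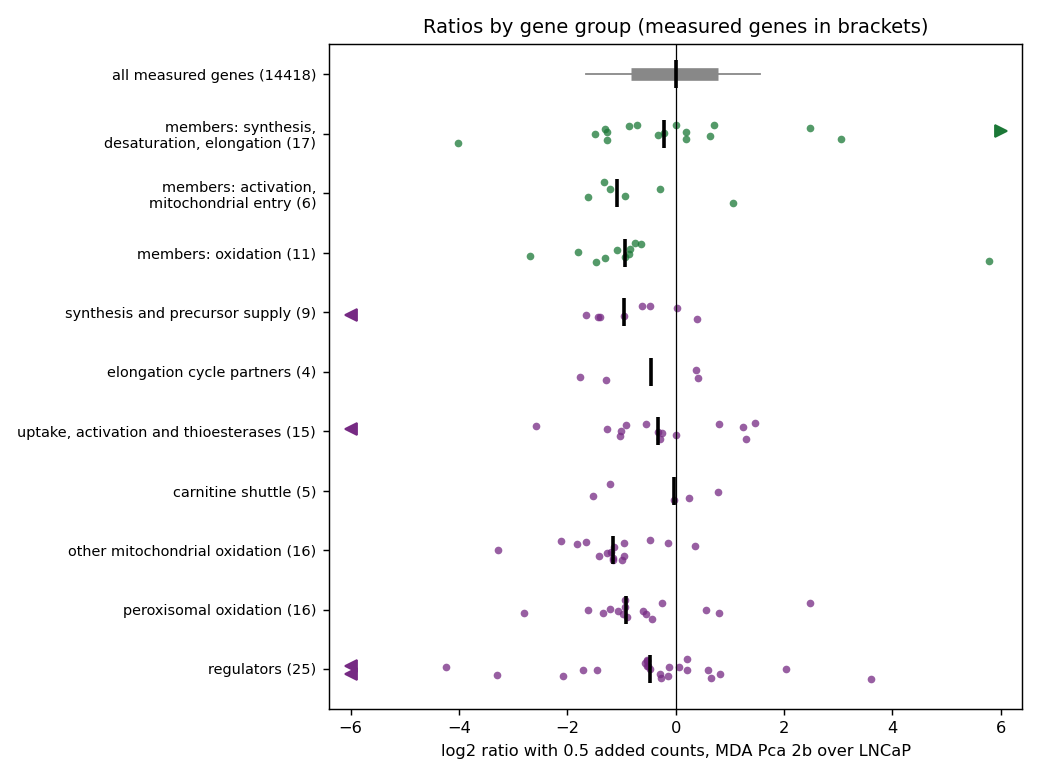
Log2 ratio with 0.5 added counts, MDA Pca 2b over LNCaP, for the measured members by branch (green) and for the other pathway genes by list (purple), with medians as black ticks and arrowheads for values past 6 in size. The grey bar spans the middle 50% of all 14418 measured genes and the thin line the middle 80%. The oxidation members and the wider mitochondrial and peroxisomal oxidation lists gather left of 0, with medians of −0.94, −1.16 and −0.92. Synthesis, desaturation and elongation members spread around −0.21.

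Some values carry limits of their own. With 1 amplicon per gene, a count of 0 in a single library could not be checked with another amplicon. This applies to ELOVL4 and ACADL in LNCaP and to ME1, MLXIP, PPARG and ACOT2 in MDA Pca 2b. Whether these zeros come from low expression or from a failed amplicon was not tested. Pseudogenes are annotated for ACSL3, CPT2, HADHA, HADHB and SCD and antisense RNAs for ACSL3, ACSL6, ECI1 and ELOVL2, and no source used here says whether their reads were counted apart. The members' transcripts had a median GC content of 50.2%, near the 49.9% of all measured genes, and removing the trend of the ratio over GC content moved no member by more than 0.22 on the log2 scale.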

How the data were processed

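Total RNA (10 ng, per the labels' protocols) of 1 library per line was measured by amplicon sequencing. The deposited values are whole-number read counts per amplicon, with no normalization visible. The submitters' processing notes name hg19 and DESeq with no role; no source used here gives the aligner or counter. Of 20812 rows, 10 spike-in controls with 0 counts were left out. Counts were scaled with TMM factors of edgeR 4.0.16 (1.01 for LNCaP, 0.994 for MDA Pca 2b) to CPM, where 1 count is worth 0.0923 and 0.117 CPM. Ratios have exact Clopper-Pearson 95% intervals conditional on the sum of both counts. Without molecular identifiers, amplified reads are not separate molecules, and intervals cover counting error only. Where a library was at 0, the fold after "at least" is the exact 95% lower limit. The fold against 3 counts (0.277 and 0.352 CPM) takes the count of the other library as exact and is larger. List medians used 0.5 added counts. Amplicons differ in yield, so levels set side by side for different genes, and sums over genes, are only a rough guide to abundance. Quotients of gene pairs between lines used the conditional odds ratio (scipy 1.17.1). The interval step was tested on counts simulated with counting error alone, so that test says nothing about spread between libraries or amplified reads.

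All members are named; of each other list, up to 4 genes apart with the interval end farthest from no difference, plus a few genes chosen for their roles; some planned genes and markers are not reported here. Members and lists were chosen with earlier results of these data known. Promoters are from RefSeq (GRCh38.p14), GC content from GENCODE release 29. Alternatives were other scalings (totals, upper quartile, DESeq2 1.42.0 size factors), filters, added counts, fold thresholds, an assumed spread, and removal of the GC trend with a lowess curve.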

Additional observations from a re-analysis of the deposited data

How the results depend on the processing

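The count of members higher in LNCaP, 9 as reported, was 19 with a 1.5-fold threshold, 3 with 3-fold, 2 with an assumed spread of 20% and 1 with 40%. Over all measured genes the same settings gave 3242, 896, 1015 and 579 higher in LNCaP (1910 as reported) and 2776, 850, 920 and 590 higher in MDA Pca 2b (1567 as reported). The members higher in MDA Pca 2b numbered between 3 and 5 under these settings, the other scalings, a minimum of 50 counts or 1 count, and the GC correction; with 10 counts required in both libraries they numbered 1, and with a mean of at least 10 CPM 0. Across the scalings, the minimums of 50 counts and 1 count and the GC correction, the count higher in LNCaP lay between 8 and 10 and the median log2 ratio of the members between −0.89 and −0.76. Upper quartile scaling moved 4 of 34 members out of their counting interval and the GC correction 7, and no member called apart changed direction; of the others only FASN did, as given above. Scaling to a median ratio of 1 and to totals without small nucleolar RNAs were chosen after seeing the data, and both left 9 and 4. At these depths a gene at 0 could hold up to 3 counts, so ELOVL4 and ACADL in LNCaP were not detectable rather than absent. No paired analysis was possible because each line had 1 library, for which reason no library could be left out either.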

Other observations

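The nearest measured genes on both sides of the members called higher in LNCaP mostly had intervals not past 2-fold. Of 16 such neighbours that are not members, 0 were past 2-fold higher in LNCaP (13.2% of all measured genes) and 2 were higher in MDA Pca 2b (10.9% of all), DLG4 beside ACADVL (379 counts in LNCaP, 720 in MDA Pca 2b) and LEF1 beside HADH (20 and 227 counts); 10 of the 16 ratios were toward LNCaP, and the median log2 ratio was −0.35, against −0.0018 over all measured genes. Of 8 such neighbours of the members higher in MDA Pca 2b, 2 were higher in LNCaP and 1 lower, and 5 ratios were toward LNCaP. ELOVL4, unread in LNCaP, lies between SH3BGRL2 and TTK, which both went the other way: SH3BGRL2 was 17.7-fold (8.40 to 44.8) and the mitotic kinase TTK 8.36-fold (5.08 to 14.7) higher in LNCaP. ELOVL2 lies beside SYCP2L, with 6 and 36 counts, which was higher in MDA Pca 2b as ELOVL2 was, and on its other side beside NEDD9, with 72 and 74 counts, which was not past 2-fold. Neighbours were taken by start position from the RefSeq gene table of GRCh38.p14, matched by gene identifier or symbol, in which 19405 of the 20802 amplicons were placed.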
